A study of Mus musculus with 4 samples.

Results

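The JAK-STAT genes described here, and those of its feedback, were 10 genes read on 4 arrays of mouse bone marrow cells: the kinases Jak1 and Jak2, the transcription factors Stat3, Stat5a and Stat5b, the feedback inhibitors Socs1, Socs2, Socs3 and Cish, and the kinase gene Pim1. Members were taken as all probe sets whose only symbol in the array's annotation was one of these names, which gave 26 of 34945 probe sets with 1 symbol and 10 of 18193 genes. The cells were the lineage-negative, Sca-1-positive, c-kit-positive (LSK) fraction, which is rich in blood stem and progenitor cells. At day 3 after retroviral transduction the study measured LSK cells that received β-catenin and LSK cells that received enhanced green fluorescent protein (eGFP). The DKmix cells of day 50 and day 300 were LSK cells transduced with β-catenin and kept in culture. All 4 groups grew in serum-containing medium with IL-3, SCF, Flt3 and IL-11. The strain and age of the mice, the vector, the part of β-catenin it carried and whether both DKmix samples came from 1 culture are not given in the sources used here, and no eGFP culture of a later day was analysed. Each group held 1 array, so all ratios below are between single arrays, with no replicate check, no test and no p-value.

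Cytokine receptors of this family have no enzyme of their own and carry Janus kinases (JAKs) on their tails. Binding of the cytokine lets the kinases phosphorylate the receptor and then the STAT proteins, which pair, enter the nucleus and switch on genes. Among those genes are CISH and the SOCS proteins, which block the receptor or the kinase and so close a negative feedback loop, and PIM1, a kinase that favours survival. In blood cells IL-3 signals through a common beta chain, JAK2 and STAT5, and IL-11 through gp130, JAK1 and STAT3, while SCF and Flt3 ligand use receptors that are kinases themselves. STAT5 is needed for the growth of mast cells, and transcripts of the SOCS genes are short-lived. An array reads transcript amounts only, not phosphorylation of these proteins.

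Values are MAS5 signals, linear intensities already scaled by the authors to a trimmed mean of 150 on each array. Signals under 48.3, the median of all values, were set to that floor before a log2 ratio was taken, and where 1 array was at the floor the ratio is a bound, written "at least". The probe set with the highest mean log2 signal stands for a gene unless others are named, and all 10 members were above the floor on all 4 arrays by it. Of the 26 probe sets, 16 were above the floor on all arrays, 8 on some and 2 on none (1 of Stat3 and 1 of Socs2). For genes with 2 probe sets above the floor on both arrays of a pair, the difference between their log2 ratios was taken. The SD of these differences, divided by the square root of 2, is the probe set SD, the spread of a single probe set. It was 0.64 for β-catenin against eGFP at day 3 and 0.81 for DKmix day 50 against β-catenin day 3. For DKmix day 300 against β-catenin day 3 it was 0.64, and between the DKmix arrays 0.91. The spread between 2 probe sets of 1 gene is larger by a factor of the square root of 2. The probe set SD leaves out differences between cultures, and a 2-fold ratio was only a little larger than it between the DKmix arrays. Of genes past 2-fold by the brightest probe set, the next one went the same way in 73.4%, 73.1%, 84.3% and 62.3% in the same order of comparisons.

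The arrays differed in RNA controls and in cell makeup. The 3′ to 5′ signal ratio of Gapdh was 1.18 for the β-catenin array and 4.14 for the eGFP array of day 3. It was 4.96 for DKmix cells of day 50 and 1.06 for those of day 300. The ratio of β-actin was 1.32, 1.83, 3.41 and 1.20 in the same order. Both controls were higher on the eGFP and day 50 arrays. By β-actin, however, the eGFP array lay nearer to the β-catenin array than to day 50. The summed signal of 10 neutrophil markers was 8884 in β-catenin cells and 87118 in eGFP cells, then 336.3 at DKmix day 50 and 204.4 at day 300, with 8, 10, 2 and 1 of the 10 above the floor. That of 10 mast cell markers was 3480 in β-catenin cells and 731.4 in eGFP cells, then 174201 at day 50 and 74373 at day 300, with 5, 7, 9 and 8 above the floor. Mast cell transcripts were thus most abundant in DKmix cells but present in β-catenin cells at day 3, where Cpa3 gave 1560, against 134.7 in eGFP cells. Monocyte, macrophage and dendritic cell markers (11 genes) summed to 26355 in β-catenin cells and 33590 in eGFP cells, then 750.6 at day 50 and 6012 at day 300, with 11, 9, 6 and 4 above the floor. The day 3 sums hide opposite courses, since 7 of the 11 were at least 2-fold higher in β-catenin than in eGFP cells (H2-Aa and Cd74 among them) and 4 lower (Lyz2 and Csf1r among them), and at day 300 Cd68 alone gave 5407. Stem and progenitor markers (8 of 9 in the table) summed to 1501 in β-catenin cells and 421.2 in eGFP cells, then 6327 at day 50 and 6590 at day 300. Kit, the c-kit receptor that defines the LSK gate, gave 82.9 in β-catenin cells and 55.8 in eGFP cells, then 3460 at day 50 and 1263 at day 300, so the gate's own marker was low on both day 3 arrays. Lymphocyte (5 of 6) and stromal or endothelial (6) marker sums stayed at or below 406.8. In such bulk RNA, fewer cells of a type and less RNA per cell cannot be told apart.

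The kinases Jak1 and Jak2 took different courses. Jak1, which serves gp130 and interferon receptors, gave 1319 in β-catenin cells and 728.4 in eGFP cells, then 1024 at DKmix day 50 and 2477 at day 300. Its other probe sets gave 354.6 and 159.3 in β-catenin cells, 514.0 and 154.9 in eGFP cells, 919.7 and 258.9 at day 50, and 1008 and 313.6 at day 300. DKmix day 300 was thus the highest array by all 3 probe sets, although on a scale set by the hybridisation controls the brightest had a log2 ratio of -0.14 to β-catenin day 3. As deposited, its log2 ratios to that array were 0.91, 1.51 and 0.98, so only 1 of the 3 was past 2-fold. Its ratios to eGFP day 3 were 3.40-fold, 1.96-fold and 2.02-fold. At day 50 the 3 probe sets did not agree on the direction against β-catenin day 3, with log2 ratios of -0.36, 1.37 and 0.70.

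Jak2, the kinase of the IL-3, erythropoietin and thrombopoietin receptors, gave 1213 in β-catenin cells and 1331 in eGFP cells, then 1216 at DKmix day 50 and 562.4 at day 300. The other arrays were thus alike and day 300 was low. The other probe set gave 719.7 in β-catenin cells and 294.3 in eGFP cells, then 213.5 at day 50 and 352.8 at day 300. Against β-catenin day 3 both probe sets were lower at DKmix day 300, by 2.16-fold and 2.04-fold. Elsewhere they often differed: between β-catenin and eGFP at day 3 the log2 ratios were -0.13 and 1.29, and at day 50 against β-catenin day 3 they were 0.00 and -1.75. The dimmer probe set was low on eGFP day 3 and DKmix day 50, the arrays with the higher 3′ to 5′ control ratios. The part of RNA quality in this was not tested.

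**Figure D1:**
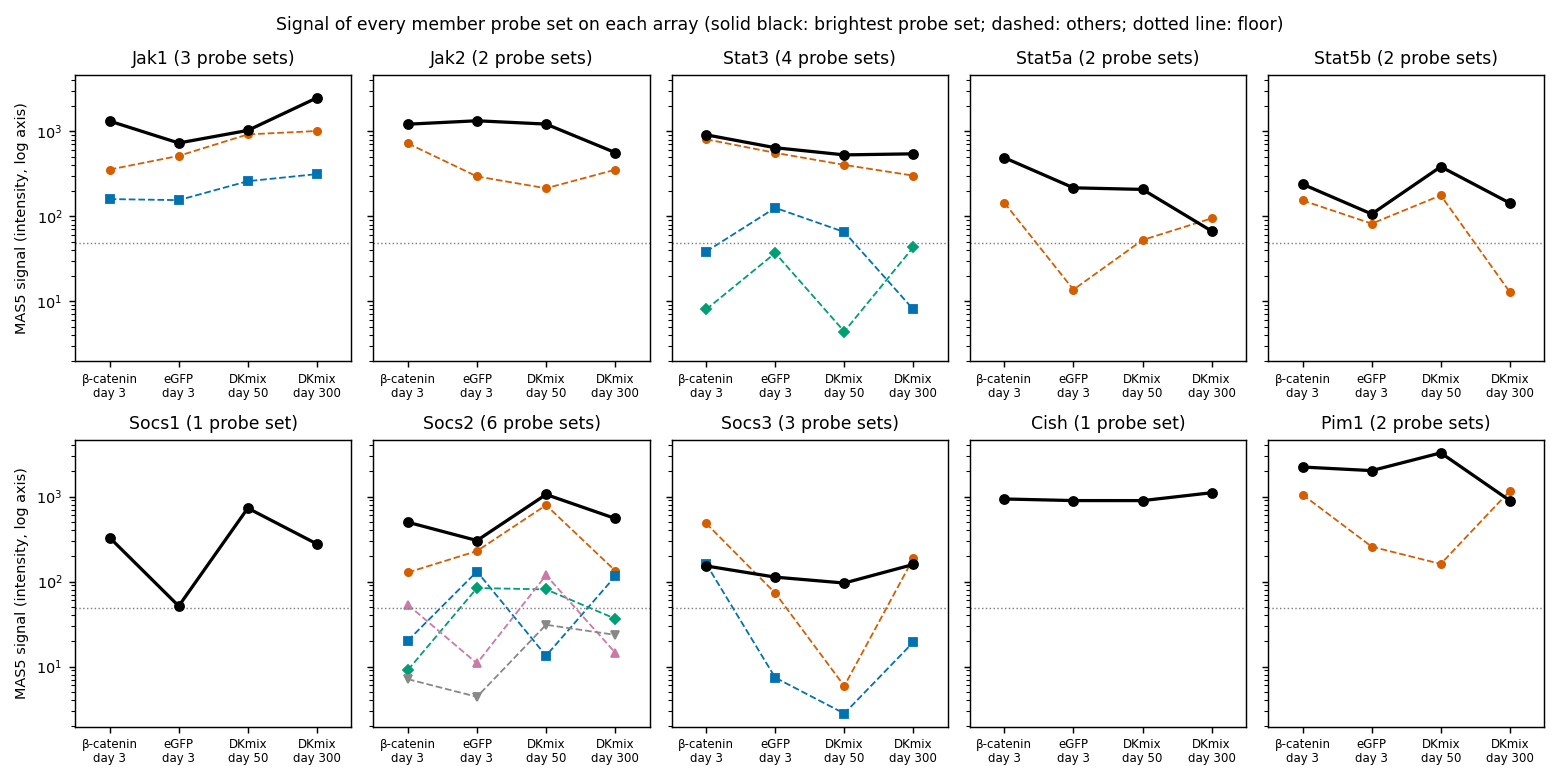
MAS5 signal (log axis) of all 26 member probe sets on the 4 arrays, 1 panel per gene, with the brightest probe set as a solid line, the others dashed and the floor of 48.3 dotted. Lines only join the values of 1 probe set. Socs1 dips to 51.5 on eGFP day 3, Cish is flat between 897.4 and 1111, and the 2 probe sets of Pim1 run in opposite directions after day 3.

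Of the STAT genes, Stat5a and Stat5b were both higher in β-catenin cells than in eGFP cells at day 3 and parted afterwards. Their proteins are near-identical, and reading of 1 transcript by the other's probes was not tested. Stat5a gave 488.8 in β-catenin cells and 216.2 in eGFP cells (2.26-fold higher), then 207.1 at DKmix day 50 and 67.0 at day 300. DKmix day 300 was therefore 7.30-fold below β-catenin day 3 and 3.09-fold below day 50. The other Stat5a probe set gave 143.9 in β-catenin cells and 13.7 in eGFP cells (at least 2.98-fold higher), then 52.5 at day 50 and 94.5 at day 300. It put DKmix day 50 2.74-fold below β-catenin day 3, as did the brightest at 2.36-fold. At day 300 it was only 1.52-fold below β-catenin day 3 and was above day 50. The size of the day 300 difference thus rests on the brightest probe set. The dimmer Stat5a probe set was lower on eGFP day 3 and DKmix day 50 than on the other arrays, as for Jak2. The part of RNA quality in this was not tested.

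Stat5b gave 238.5 in β-catenin cells and 106.3 in eGFP cells at day 3 (2.24-fold higher), then 383.1 at DKmix day 50 and 142.9 at day 300. Its other probe set ran in parallel, with 153.5 in β-catenin and 81.9 in eGFP cells (1.87-fold higher), then 176.3 at day 50 and 12.8 at day 300. Day 50 was the highest array by both. DKmix day 300 was below day 50 by 2.68-fold and by at least 3.65-fold. Against β-catenin day 3 the day 50 log2 ratios were 0.68 and 0.20, short of 2-fold. When hybridisation controls set the scale, the first of these was -0.26.

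Stat3, the factor of gp130 cytokines and of G-CSF, moved less. It gave 909.6 in β-catenin cells and 640.9 in eGFP cells, then 527.7 at DKmix day 50 and 543.1 at day 300. Its other bright probe set gave 805.8 in β-catenin and 557.9 in eGFP cells, then 402.4 at day 50 and 300.8 at day 300. Both were highest on β-catenin day 3 and both were lower in DKmix cells than there, with log2 ratios of -0.79 and -1.00 at day 50 and of -0.74 and -1.42 at day 300. The remaining 2 Stat3 probe sets stayed at or below 125.7 and were above the floor on 2 arrays or none.

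Over the 4 arrays the signal ranged 1.24-fold to 14.2-fold among the inhibitors, 1.72-fold to 7.30-fold among the STATs and 2.37-fold and 3.40-fold for the kinases. Socs1, a direct inhibitor of JAK kinase activity, had the widest range of the 10 members by brightest probe set, 14.2-fold. Its only probe set gave 329.2 in β-catenin cells and 51.5 in eGFP cells, then 731.4 at DKmix day 50 and 277.2 at day 300. The 3 β-catenin-transduced samples were all high and eGFP was close to the floor. The ratio over eGFP was 6.39-fold for β-catenin day 3, 14.2-fold for DKmix day 50 and 5.38-fold for DKmix day 300. On the hybridisation control scale the log2 ratios over eGFP were 2.77 for β-catenin day 3, 2.98 for DKmix day 50 (3.83 as deposited) and 1.48 for DKmix day 300 (2.43 as deposited), and that of day 50 over β-catenin day 3 was 0.21 (1.15 as deposited). The ratios over eGFP share that array. As deposited, day 300 was 1.19-fold below β-catenin day 3 (log2 ratio -0.25), but on the hybridisation control scale this log2 ratio was -1.29. With 1 probe set, no other reading of the transcript was to hand.

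Cish, a STAT5 target that binds the activated receptor, was the most even member. It gave 938.0 in β-catenin cells and 897.9 in eGFP cells, then 897.4 at DKmix day 50 and 1111 at day 300, a range of 1.24-fold. Its signal was above that of at least 91.0% of genes on each array. On the hybridisation control scale the DKmix arrays were lower than β-catenin day 3 for Cish as for most genes. The log2 ratio was -1.00 at day 50, past 2-fold, and -0.80 at day 300. Like Socs1, Cish had only 1 probe set.

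Socs2, another STAT5 target and an inhibitor of growth hormone signalling, was highest at DKmix day 50. It gave 499.3 in β-catenin cells and 304.1 in eGFP cells, then 1059 at day 50 and 553.3 at day 300. The next probe set gave 128.0 in β-catenin and 228.9 in eGFP cells, then 793.7 at day 50 and 134.6 at day 300. Day 50 was above β-catenin day 3 by 2.12-fold and 6.20-fold, and above eGFP day 3 by 3.48-fold and 3.47-fold. Day 300 was below day 50 by 1.91-fold and 5.90-fold and close to β-catenin day 3 (1.11-fold and 1.05-fold). Of the other 4 Socs2 probe sets none passed 131.3 on any array, and their directions differed.

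Socs3, the inhibitor of gp130 and G-CSF receptors and a STAT3 target, was read differently by its probe sets. The one with the highest mean gave 152.7 in β-catenin cells and 112.8 in eGFP cells, then 96.1 at day 50 and 159.0 at day 300, a range of 1.65-fold. Its name ends in _x_at, Affymetrix's mark for probes that may bind other transcripts. The probe set annotated with the Socs3 RefSeq transcript gave 484.8 in β-catenin cells and 73.2 in eGFP cells at day 3 (6.62-fold higher), then 5.9 at DKmix day 50 and 188.0 at day 300. By it DKmix day 50 was at least 10.0-fold and DKmix day 300 2.58-fold below β-catenin day 3. A further probe set gave 161.9 in β-catenin cells and 7.4 in eGFP cells (at least 3.35-fold higher), then 2.8 at day 50 and 19.4 at day 300, both below the floor. All 3 were higher in β-catenin cells than in eGFP cells, and the 2 that were above the floor on both day 3 arrays were lowest at day 50. The RefSeq-annotated probe set was low on eGFP day 3 and DKmix day 50, the arrays with the higher 3′ to 5′ control ratios. The part of RNA quality was not tested.

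Pim1, the survival kinase gene, could not be given 1 course. Its brightest probe set gave 2229 in β-catenin cells and 2022 in eGFP cells, then 3272 at DKmix day 50 and 897.2 at day 300. The probe set annotated with its RefSeq transcript gave 1053 in β-catenin cells and 257.5 in eGFP cells, then 161.2 at day 50 and 1168 at day 300. The first put DKmix day 300 3.65-fold below day 50 and the other 7.25-fold above it, a gap of 4.72 on the log2 scale. The dimmer probe set was low on eGFP day 3 and DKmix day 50, as for Jak2, and high on the arrays whose Gapdh ratio was near 1. Whether RNA quality had a part in this was not tested.

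STAT proteins bind the palindrome TTCNNNGAA, and promoter windows of the members were searched for it. RefSeq windows (250 bases before to 50 after a transcription start, build GRCm38.p6) were found for 9 members, 12 windows in all, with none for Socs2. The motif reads the same on both strands. It was present in 2 of the 12 windows (16.7%), those of Cish and Socs3, and in 8.30% of all 32851 windows. The 3 windows below are those of Socs1, the member with the widest range, and of the 2 inhibitors with a match, chosen for it. They run 5′ to 3′ on the gene's strand up to the start, with 20 transcribed bases more for Cish, and capitals mark the motif. The Socs1 window is chr16:10785537-10785786 on the minus strand, that of Socs3 chr11:117969367-117969616 on the minus strand and that of Cish chr9:107296409-107296678 on the plus strand.
Socs1: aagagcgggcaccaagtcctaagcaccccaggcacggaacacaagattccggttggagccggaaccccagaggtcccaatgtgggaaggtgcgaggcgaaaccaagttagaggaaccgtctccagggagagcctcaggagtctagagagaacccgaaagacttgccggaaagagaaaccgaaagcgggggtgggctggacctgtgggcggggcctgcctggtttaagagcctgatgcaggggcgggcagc
Socs3: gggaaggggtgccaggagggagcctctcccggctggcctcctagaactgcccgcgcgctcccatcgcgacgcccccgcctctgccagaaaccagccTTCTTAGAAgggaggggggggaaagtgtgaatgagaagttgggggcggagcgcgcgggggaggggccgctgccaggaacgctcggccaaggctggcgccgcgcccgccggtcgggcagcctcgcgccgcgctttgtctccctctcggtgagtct
Cish: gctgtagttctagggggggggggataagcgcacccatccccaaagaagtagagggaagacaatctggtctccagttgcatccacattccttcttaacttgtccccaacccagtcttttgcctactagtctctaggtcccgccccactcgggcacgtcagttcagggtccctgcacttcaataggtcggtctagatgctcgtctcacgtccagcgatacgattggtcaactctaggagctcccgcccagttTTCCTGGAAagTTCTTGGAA
The match of Socs3 began 154 bases before the start, and those of Cish at bases 1 and 12 of the transcript. A match is a run of letters and not a measured site.

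The first comparison asked how LSK cells given β-catenin differed early from those given eGFP. Socs1, Stat5a and Stat5b (3 of 10 members) were past 2-fold on the higher side in β-catenin cells, against 10.2% of all 13365 genes measured, and 0 were lower, against 9.42%. By probe set, 8 of 24 measured were at least 2-fold higher (11.5% of all probe sets) and 2 were lower (9.24%). The 8 came from Jak2, Pim1, Socs1, Socs3, Stat5a and Stat5b, and the 2 lower, of Socs2 and Stat3, were dim. The members' median log2 ratio was 0.61, against -0.01 over all genes. The Gapdh control ratio and the neutrophil marker sum were both greater on the eGFP array. Of the mast cell markers, 4 of 7 measured were at least 2-fold higher in β-catenin cells (Cpa3, Fcer1a, Ms4a2 and Tph1) and 2 lower, and the class II genes were higher too. The part of any of these in the members' ratios was not tested.

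The next comparison asked what had changed by day 50 of culture. Between DKmix day 50 and β-catenin day 3, 2 members were at least 2-fold higher (Socs1 and Socs2, against 16.1% of genes) and 1 was lower (Stat5a, against 15.7%). By probe set, 5 of 23 were higher (15.5% of all) and 7 lower (15.4%). The members' median was -0.03, against 0.07 over all genes. On the hybridisation control scale 0 members were past 2-fold higher and 5 were lower, with a median of -0.97. All genes had a median of -0.70 on that scale, and their share past 2-fold there is not given. Set against eGFP day 3 instead, Socs1, Socs2 and Stat5b were at least 2-fold higher (15.6% of genes) and 0 members were lower (15.0%). The comparisons share arrays. The eGFP and day 50 arrays had like Gapdh ratios, but their β-actin ratios were 1.83 and 3.41. Socs1 and Socs2 were the members past 2-fold against either day 3 array. Mast cell markers were far higher at day 50 and their part was not tested.

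At day 300 the array with a Gapdh ratio like that of β-catenin day 3 was compared with it. Jak2, Pim1 and Stat5a were at least 2-fold lower (against 14.4% of genes) and 0 members were higher (14.0%). By probe set, 8 of 22 were lower (13.7% of all) and 2 higher (13.4%). The median of the members was -0.49, against -0.08 over all genes. On the hybridisation control scale 6 members were lower and the median was -1.54, against -0.81 over all genes. The share of all genes past 2-fold on that scale is not given. Of the markers measured, 7 of 8 mast cell genes were at least 2-fold higher than at β-catenin day 3, and 7 of 8 neutrophil and 10 of 11 monocyte, macrophage and dendritic cell genes were lower, and their part was not tested. Jak2 was lower than at β-catenin day 3 by both of its probe sets, whereas the other Pim1 probe set had a log2 ratio of 0.15. Against eGFP day 3, Jak1 and Socs1 were at least 2-fold higher (15.8% of genes). The same 3 genes, Jak2, Pim1 and Stat5a, were lower (15.8%). The members' median was 0.37 there, against -0.10 over all genes. On the hybridisation control scale these medians were -0.28 and -0.50. The other probe sets of these 3 genes had log2 ratios to eGFP day 3 on the higher side, 0.26 for Jak2, 2.18 for Pim1 and at least 0.97 for Stat5a.

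Between the DKmix arrays, day 300 was at least 2-fold lower than day 50 for 5 of the 10 members. These were Jak2, Pim1, Socs1, Stat5a and Stat5b (against 15.9% of genes); Jak1 alone was at least 2-fold higher (against 15.1%). The median of the members was -1.02, against -0.14 over all genes. By probe set, 8 of 23 were lower (15.7% of all) and 4 higher (15.2%). Of the members with 2 or more probe sets above the floor on both arrays, Socs2 was lower by both such probe sets and Jak1 higher by all 3, while Jak2, Stat5a, Stat3 and Pim1 had probe sets on either side of 0. The probe set SD was widest for this pair, and averaging every probe set of a gene left 2 members lower in place of 5. The Gapdh ratio was 1.06 at day 300 and 4.96 at day 50, and 6 of 9 measured mast cell markers were at least 2-fold lower at day 300 and 0 higher (median -1.48). The part of either was not tested. None of the 10 members had both DKmix arrays at least 2-fold above both day 3 arrays (2.78% of 15292 genes did) or below them (2.68% did).

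**Figure D2:**
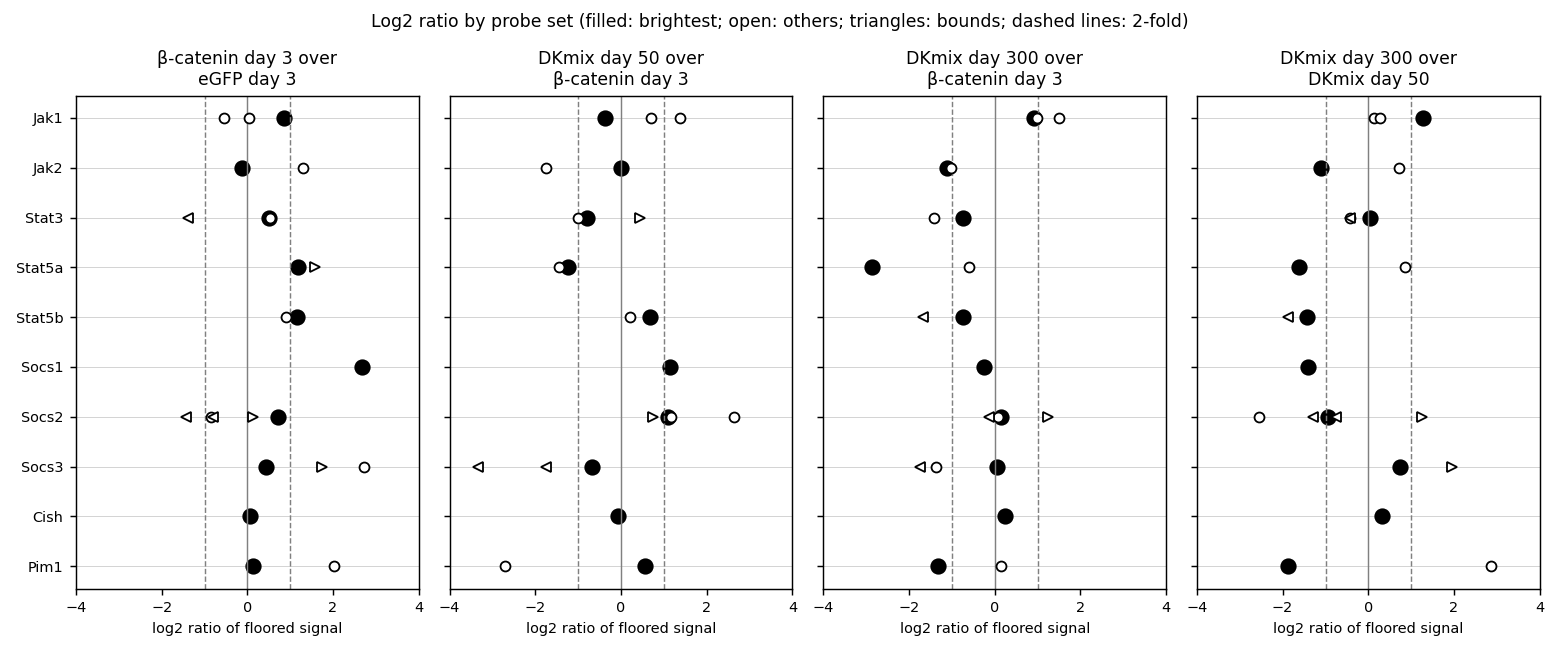
Log2 ratio of floored signal for each member probe set in the 4 comparisons (filled circles the brightest probe set, open symbols the others, triangles a bound, dashed lines 2-fold). Stat5a, Stat5b and Socs1 lie at or beyond 0.91 between β-catenin and eGFP by every probe set, and the 2 Pim1 probe sets lie at -1.87 and 2.86 between the DKmix arrays. When hybridisation controls set the scale, the Jak1, Socs2, Socs3 and Cish ratios of DKmix day 300 to β-catenin day 3 change sign. The median of all genes for that pair moves from -0.08 to -0.81.

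The other JAKs and STATs measured (5 genes) included 3 at least 2-fold higher in β-catenin cells than in eGFP cells and 0 lower. Over all genes 10.2% were higher and 9.42% lower. Stat4, which transmits IL-12 signals, gave 519.4 in β-catenin cells and 100.3 in eGFP cells, then 454.9 at DKmix day 50 and 1326 at day 300. Stat2, of the interferon response, gave 153.6 in β-catenin and 49.4 in eGFP cells, then 43.2 at day 50 and 190.9 at day 300. Jak3, the kinase of the common gamma chain, gave 319.7 in β-catenin and 143.8 in eGFP cells, then 23.8 at day 50 and 340.1 at day 300. Like the dimmer Jak2 and Pim1 probe sets, Jak3 and Stat2 were lower on eGFP day 3 and DKmix day 50 than on the other arrays. DKmix day 300 was at least 2-fold above day 50 for 4 of 5 genes, against 15.1% of all genes. The ratio was at least 7.04-fold for Jak3, at least 3.95-fold for Stat2, 2.91-fold for Stat4 and 2.58-fold for Stat6. Tyk2 stayed between 509.4 and 605.9 on all arrays.

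Receptors that use JAKs (23 of 26 in the table) split. The common beta chain of the IL-3, IL-5 and GM-CSF receptors, Csf2rb, gave 2535 in β-catenin cells and 2889 in eGFP cells, then 11030 at DKmix day 50 and 6129 at day 300. The mouse IL-3-specific beta chain, Csf2rb2, gave 625.5 in β-catenin and 562.2 in eGFP cells, then 10363 at day 50 and 3463 at day 300. Both were thus higher in both DKmix samples than at day 3, Csf2rb2 by 16.6-fold and 5.54-fold against β-catenin day 3. The IL-3 receptor alpha chain, Il3ra, gave 119.5 in β-catenin and 48.4 in eGFP cells, then 208.8 at day 50 and 107.6 at day 300. For IL-11, the gp130 chain Il6st gave 50.0 in β-catenin and 118.6 in eGFP cells, then 64.2 at day 50 and 10.1 at day 300. The G-CSF receptor gene Csf3r, high in neutrophils, gave 295.6 in β-catenin and 343.1 in eGFP cells, then 82.8 at day 50 and 34.1 at day 300. Against β-catenin day 3, 2 of 20 measured receptors were at least 2-fold higher and 4 lower at day 50 (median log2 ratio -0.14), and 6 were higher and 4 lower at day 300 (median -0.10). Between β-catenin and eGFP at day 3, 2 were higher and 3 lower (median 0.15). Of all genes, 16.1% were higher and 15.7% lower at day 50, 14.0% and 14.4% at day 300, and 10.2% and 9.42% at day 3. The balance turned with the scale. Set by the hybridisation controls, it was 2 higher and 8 lower at day 50 and 2 higher and 7 lower at day 300. At day 3 it was then 4 higher and 1 lower. The median of all genes moved as well, to -0.70 at day 50, -0.81 at day 300 and 0.32 at day 3.

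Among 18 further inhibitors and phosphatases, 1 was at least 2-fold higher and 3 were lower in β-catenin cells than in eGFP cells (median -0.03, but 0.36 on the hybridisation control scale). Pias4, a SUMO ligase that restrains STATs, was the higher one (4.80-fold). At DKmix day 50, 3 were higher and 4 lower than at β-catenin day 3 (median 0.22, but -0.72 on that scale). The phosphatases went opposite ways there: Ptpn6 (SHP-1), which dephosphorylates JAKs in blood cells, gave 123.3 at day 50, against 1961 at β-catenin day 3. Ptpn2 (TC-PTP), which acts on JAK1 and JAK3, gave 3780, against 912.7. At day 300 both were nearer to the day 3 values, with 944.7 for Ptpn6 and 503.3 for Ptpn2. In all, 2 of the 18 were higher and 1 lower at day 300 than at β-catenin day 3 (median 0.11, but -0.94 on that scale). Of all genes, 10.2% were higher and 9.42% lower at day 3, 16.1% and 15.7% at day 50, and 14.0% and 14.4% at day 300. Their medians on the hybridisation control scale were 0.32, -0.70 and -0.81 in that order.

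Of 13 adaptors and coactivators, 1 was at least 2-fold higher in β-catenin cells than in eGFP cells (Nmi, a STAT-binding interferon-induced protein, 3.65-fold) and 0 were lower. Gab2, a docking protein of IL-3 and Kit signalling, gave 2305 at DKmix day 50 and 923.1 at day 300, against 371.0 at β-catenin day 3. For the list, 3 were higher and 3 lower at day 50 (median 0.27, but -0.67 on the hybridisation control scale), and 3 higher and 1 lower at day 300 (median 0.03, but -1.01 on that scale). Of the other PIM kinases and PIM substrates (7 genes), 4 were at least 2-fold lower at day 50 and 0 higher (median -1.00), and 3 were lower and 1 higher at day 300 (median -0.99). Pim3 gave 355.3 at day 300, against 1071 at β-catenin day 3, and Pim2 gave 319.5, against 323.0. Eif4ebp1, a translational repressor, was lower than at β-catenin day 3 by 6.70-fold at day 50 and 3.57-fold at day 300. Of all genes, 10.2% were higher and 9.42% lower at day 3, 16.1% and 15.7% at day 50, and 14.0% and 14.4% at day 300. On the hybridisation control scale the medians of all genes were -0.70 at day 50 and -0.81 at day 300.

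Genes known as STAT targets were read as lists too. Il2ra and Il4ra stand in this list and in that of receptors, and Il6st in the receptor and STAT3 lists. Of 13 STAT5 targets outside the members, 4 were at least 2-fold higher in β-catenin cells than in eGFP cells and 0 lower, although the median was -0.12 (0.27 on the hybridisation control scale). Osm, an early STAT5 target that encodes oncostatin M, gave 660.6 in β-catenin cells and 107.6 in eGFP cells, then 1157 at day 50 and 1069 at day 300. It was high in the 3 β-catenin-transduced samples and low in eGFP cells, as Socs1 was. Gzmb, the granzyme B gene, gave 1462 in β-catenin and 25.4 in eGFP cells, then 25886 at day 50 and 897.7 at day 300. At day 50, 4 STAT5 targets were higher and 1 lower than at β-catenin day 3 (median 0.39), and at day 300, 5 were higher and 1 lower (median 0.69). The lower one was Id1 on both arrays, which gave 4.9 at day 50 and 86.3 at day 300, against 697.2 at β-catenin day 3. Over all genes 10.2% were higher and 9.42% lower at day 3, 16.1% and 15.7% at day 50, and 14.0% and 14.4% at day 300. On the hybridisation control scale the STAT5 list turned to 1 higher and 3 lower at day 50 (median -0.55). At day 300 it turned to 0 higher and 2 lower (median -0.35). The median of all genes moved too, to -0.70 at day 50 and -0.81 at day 300, so the list stayed above it.

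In the STAT3 list, of 14 measured at day 50, 6 were at least 2-fold lower than at β-catenin day 3 and 2 higher (median -0.60), and of 15 at day 300, 5 were lower and 1 higher (median -0.72). Hp and Lcn2, haptoglobin and lipocalin 2, were at least 16.9-fold and 25.6-fold lower on both DKmix arrays. Both are also neutrophil products, and Lcn2 is in the marker list. The neutrophil marker sum was lower as well, and its part was not tested. Between β-catenin and eGFP at day 3 the list split, with 3 of 14 higher and 5 lower (median 0.06). Junb was among the higher, at 6.36-fold or more. Of all genes, 16.1% were higher and 15.7% lower at day 50, 14.0% and 14.4% at day 300, and 10.2% and 9.42% at day 3.

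**Figure D3:**
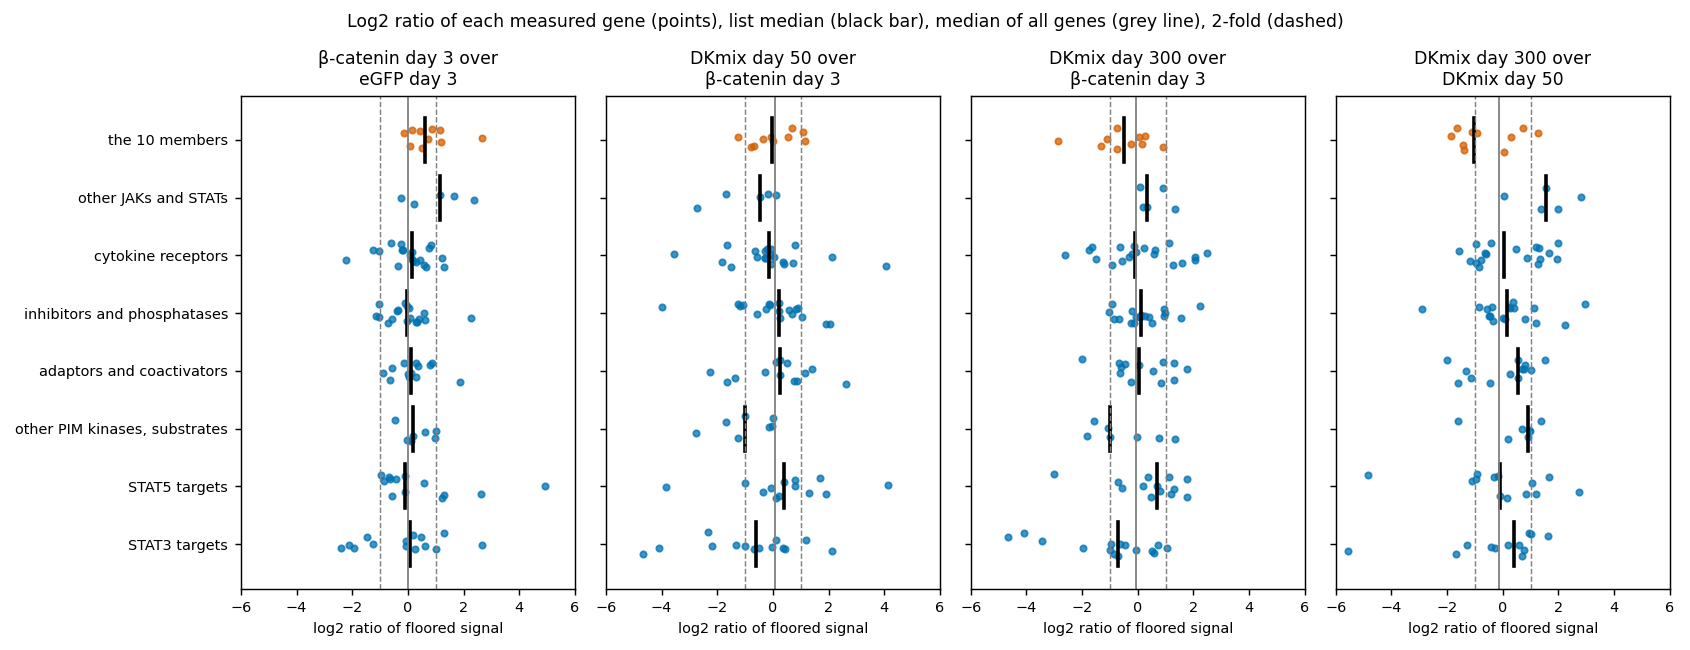
Log2 ratio of floored signal for each measured gene of the 10 members (orange) and 7 other JAK-STAT lists (blue) in the 4 comparisons, with list medians as black bars, the median of all genes as a grey line and 2-fold as dashed lines. The members' medians are 0.61, -0.03, -0.49 and -1.02 in the order of the panels, and the STAT3 targets lie at -0.60 at DKmix day 50. On the hybridisation control scale the day 50 and day 300 medians against β-catenin day 3 are lower for every list and for all genes (-0.70 and -0.81). Those of STAT5 targets, inhibitors and adaptors turn negative, as does that of other JAKs and STATs at day 300.

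The genes with a course most like that of Socs1 over the 4 arrays were found by the root mean square difference of floored log2 signals centred on each gene's mean, over 15291 other genes. The nearest was Junb, an AP-1 subunit gene and a member of the STAT3 target list (difference 0.10), with 307.3 in β-catenin cells and 4.3 in eGFP cells, then 706.3 at day 50 and 222.2 at day 300. Next came Il6, the gene of a cytokine that signals through gp130 (0.16), with 255.5 in β-catenin and 4.7 in eGFP cells, then 739.2 at day 50 and 217.7 at day 300. Sqstm1 (0.32), Abcb1b (0.33) and Hic1 (0.34) followed. All 5 were lowest on the eGFP array and highest at DKmix day 50. Junb, Il6, Abcb1b and Hic1 were below the floor on the eGFP array, where Sqstm1 gave 698.9. The closeness of the genes below the floor to Socs1 there is set by the floor, and the order of the 5 is not firm. With 4 arrays, such a likeness is a description of these samples.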

How the data were processed

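Total RNA of each sample was labelled and put on 1 Affymetrix array, per the labels' protocols. The authors deposited 1 linear intensity for each probe set, computed with MAS5 according to the submitters' processing notes. Its version and detection calls are not given in the sources used here. Array medians of the 45101 probe sets were 39.7 to 54.9. Symbols came from the platform annotation, and probe sets with several symbols (932) or unnamed in the table (9211) and 64 controls were left out. All 26 member probe sets matched RefSeq by Entrez identifier. Floored log2 ratios were computed with pandas 2.3.3. The code was tried on simulated arrays whose changes were larger than 2-fold and whose noise was small. That run does not bear on how firm the 2-fold counts are. A gene was counted at 2-fold or more, and one below the floor on either array of a pair had a bound only, or no ratio where both were. Members, gene lists and the rule for named genes (all members, and per list the 4 largest ratios past 2-fold with a brighter signal of 2 floors) were chosen with earlier results of these data known. Some list genes were picked for the text for their role after their values were seen (Tyk2, Il3ra, Il6st, Stat6, Pim2), as were the Socs3 and Cish windows. Of these genes, only Tyk2 lies outside the rule. Alternatives were other scalings, floors, probe set rules and a 3-fold threshold. The comparisons of DKmix with eGFP day 3, and choosing the probe set after flooring, were added after seeing the data.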

Additional observations from a re-analysis of the deposited data

How the results depend on the processing

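No paired analysis was possible because each group held 1 array. Counts and medians are those of the 10 members. Except for the comparisons with eGFP day 3, shares of all genes past the threshold under these alternatives are not given. The counts therefore show only how the members' numbers moved with the setting. When hybridisation controls set the scale, which moved the median of all genes by 0.33 between β-catenin and eGFP, by -0.76 at DKmix day 50 and by -0.74 at day 300 against β-catenin day 3, the counts were 5 higher at day 3, 0 higher and 5 lower at day 50 and 6 lower at day 300, with medians of -0.97 at day 50 and -1.54 at day 300. With the mean of all probe sets, 5 were higher at day 3, 1 higher and 3 lower at day 50, 1 higher at day 300, and 0 higher and 2 lower between the DKmix arrays, where the Pim1 log2 ratio was 0.50 in place of -1.87. With a 3-fold threshold, 1 was higher at day 3, 0 were higher or lower at day 50, 1 was lower at day 300, and between the DKmix arrays 0 were higher and 2 lower. Without probe sets ending in _s_at or _x_at, or with the probe set chosen after flooring, Socs3 was read by the RefSeq-derived probe set, giving 2 lower at day 50 and 2 higher between the DKmix arrays. With eGFP day 3 in place of β-catenin day 3, 0 were lower at day 50 and 2 higher at day 300. The day 300 median was then 0.37. It was -0.28 when hybridisation controls also set the scale, against -0.50 over all genes. Quantile normalization, lowess centring and floors of 11.0 and 134.6 kept every count within 1.5 times and every median within the probe set SD. The number of arrays limits all values.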
